A study of Mus musculus with 8 samples.

Results

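The Ly6 genes described here are Ly6a, which encodes Sca-1, together with Ly6c1, Ly6c2, Ly6e and Ly6k. They were taken by symbol from a table of 29079 mouse genes. Of the 5, 4 had measurements and all 4 passed the filter on low counts, and Ly6k was not analysed here. The libraries, 2 for each of 4 groups, came from the mouse colon adenocarcinoma cell line MC38. The line called WT carries a CRISPR control, and the line called knockout (KO) was edited with gRNA1 against Piezo2, a mechanically gated cation channel, so both lines went through CRISPR and the KO rests on 1 guide. Each line was either unirradiated or given 30 Gy of X-rays at once, with RNA taken 60 hours later. The sources used here do not say whether the KO line is 1 clone or whether the 2 libraries of a group are separate cultures, so p-values measure the spread between these libraries, which may be technical.

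Ly6 proteins are small, cysteine-rich proteins with a compact fold of finger-like loops held by disulphide bonds, and most are tethered to the outer face of the cell membrane by a glycosylphosphatidylinositol (GPI) anchor. Sca-1 is best known as a surface marker of mouse haematopoietic stem cells, is inducible by interferons, and in the mouse intestine marks epithelium that regenerates after injury. Ly6c1 and Ly6c2 encode the closely related Ly6C antigens, Ly6c2 being characteristic of inflammatory monocytes and Ly6c1 of endothelium and lymphocytes. Ly6e is an interferon-inducible gene whose product limits the entry of coronaviruses and serves as the receptor of syncytin-A in the mouse placenta.

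Total counts were 10971004 to 19887180 per library, so that 0 reads in a library allow up to 0.151 to 0.273 CPM (counts scaled to the library total, here with TMM factors), a limit of 3 counts that covers counting error only. Piezo2 itself had 0 and 0 reads in unirradiated WT, 3 and 9 in irradiated WT, 0 and 1 in unirradiated KO, and 7 and 12 in irradiated KO. Reads from Piezo2 therefore do not separate the lines and cannot check the labels. The labels call the cells epithelial. Of the epithelial markers, Cdh1 stood at 39.8 CPM in unirradiated WT. Muc1 reached at most 47 reads in any library, Krt19 28, Krt8 20, Vil1 9, Cldn3 and Cldn7 3, and Krt18 2. Krt19 reached the level of the filter on low counts in both WT groups and in no KO library. Epcam was not analysed here.

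All 4 measured genes lie within a cluster on chromosome 15 (mm10), Ly6e at 74955051 to 74959905 on the plus strand, and Ly6a at 74994877 to 74998031, Ly6c1 at 75044018 to 75048830 and Ly6c2 at 75108158 to 75111970 on the minus strand. Ly6c1 and Ly6c2 are near copies: their longest coding transcripts, of 844 and 822 bases, are 95% identical in a global alignment, and Ly6a is 74.1% identical to Ly6c1 and 72.3% to Ly6c2. Since Ly6c1 was counted far more often than Ly6c2, the sequences before their starts are shown, from RefSeq on GRCm38.p6, each the 250 bases upstream of a start on the minus strand, chr15:75048838-75049087 for Ly6c1 and chr15:75111972-75112221 for Ly6c2. Capitals mark bases that differ between the aligned copies, and ends that overhang the alignment are in lower case.
Ly6c1: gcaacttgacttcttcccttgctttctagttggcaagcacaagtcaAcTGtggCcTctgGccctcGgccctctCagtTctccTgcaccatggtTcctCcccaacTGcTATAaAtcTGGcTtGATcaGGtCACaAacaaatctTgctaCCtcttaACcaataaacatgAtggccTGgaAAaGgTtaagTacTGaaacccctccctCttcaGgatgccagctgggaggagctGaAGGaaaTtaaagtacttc
Ly6c2: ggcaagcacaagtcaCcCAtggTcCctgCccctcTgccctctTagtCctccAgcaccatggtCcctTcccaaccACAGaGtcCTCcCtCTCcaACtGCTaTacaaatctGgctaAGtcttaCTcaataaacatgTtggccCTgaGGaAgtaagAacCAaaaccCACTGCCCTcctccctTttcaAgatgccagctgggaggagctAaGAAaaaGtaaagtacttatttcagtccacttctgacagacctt
Over the overlap, 164 bases matched, 52 did not and 10 stood opposite a gap, an identity of 72.6%, well below that of the transcripts. The differences are spread along the window with unbroken stretches between them.

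The windows were searched on both strands, any overlaps counted, for the core of the interferon-stimulated response element (GAAA and GAAA, 2 bases apart), the interferon-gamma-activated site (TTC and GAA, 3 bases apart) and an NF-kB site (GGGA and TTTCC, 1 base apart). None of the 3 patterns stood in the 250 bases before either start listed for Ly6c1, either listed for Ly6c2, or the start of the neighbouring family member Ly6f. Among all 32851 such windows, 2.98% held the first, 7.02% the second and 0.356% the third. The absence of a match says only that these letters are not in these windows. Windows for Ly6a and Ly6e were not used here.

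Sca-1 (Ly6a) was a major transcript in every library and was highest in irradiated KO cells. It had 535 and 439 CPM in unirradiated WT, 548 and 443 in irradiated WT, 848 and 714 in unirradiated KO, and 1239 and 1109 in irradiated KO. The WT groups overlapped each other, both KO groups lay above every WT library, and irradiated KO lay above unirradiated KO. Ly6a was 1.60-fold higher in KO than in WT without irradiation (log2 0.68 ± 0.15 (SE), edgeR quasi-likelihood test, Benjamini-Hochberg adjusted p = 0.0168) and 2.37-fold higher after irradiation (1.24 ± 0.15, adjusted p = 0.000965). In KO cells 30 Gy raised it 1.5-fold (0.59 ± 0.15, adjusted p = 0.0157), while in WT the change was 0.02 ± 0.15 (adjusted p = 0.918). The difference between these irradiation responses, the interaction, was 0.56 ± 0.21 with an adjusted p of 0.315, so it did not pass. Of the alternatives tried, 2 called it, 1 of them the fit with no filter on low counts (adjusted p = 0.0338). DESeq2 (adjusted p = 0.139) and upper-quartile factors (0.326) did not, nor did any fit with 1 library left out. The KO difference without irradiation lost its call without unirradiated WT replicate 2 (adjusted p = 0.0979) or unirradiated KO replicate 1 (0.0945), and the irradiation response in KO lost its call without unirradiated KO replicate 2 (0.0988) or irradiated KO replicate 1 (0.0835). These are bulk libraries, in which more cells with a transcript and more of it per cell cannot be told apart.

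**Figure D1:**
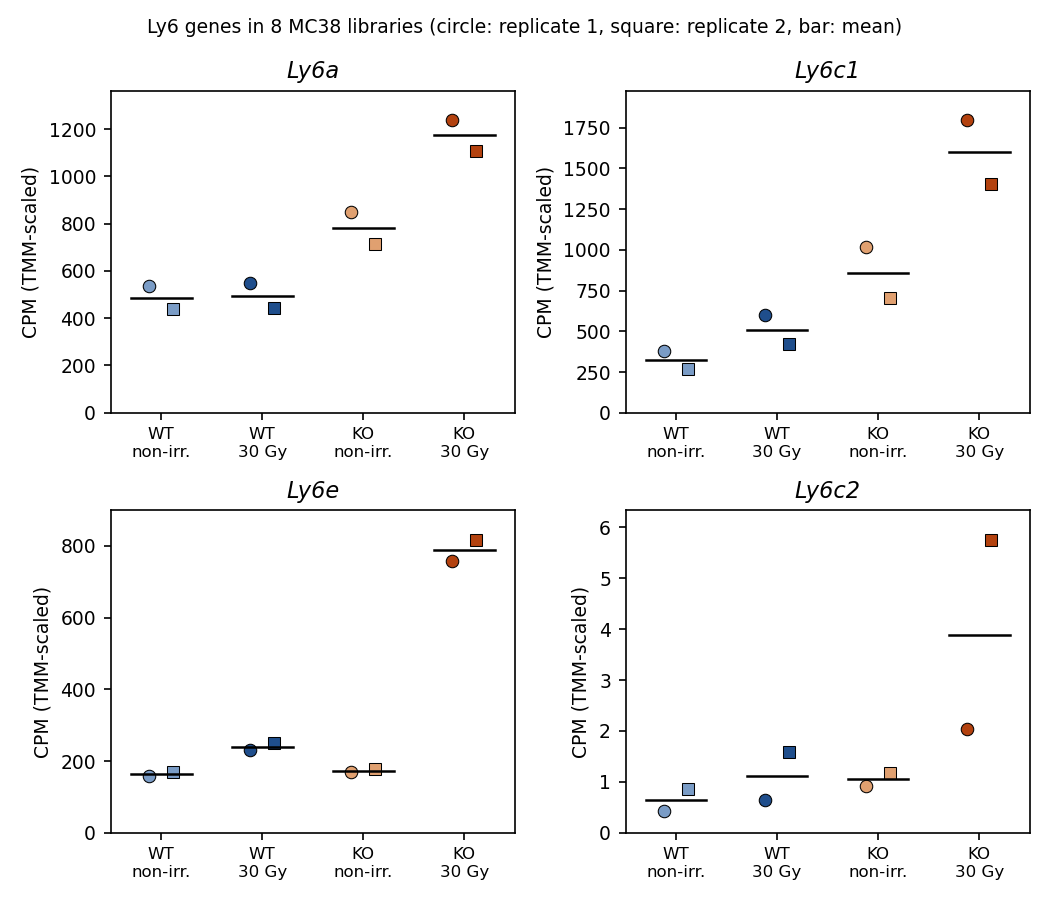
TMM-scaled CPM (linear axis from 0) of the 4 measured Ly6 genes in each library, by group, with circles for replicate 1, squares for replicate 2 and bars for group means. Ly6a and Ly6c1 step up in both KO groups, Ly6e rises mainly in irradiated KO (759 and 817 CPM), and in Ly6c2 the replicates of 1 group can differ more than groups do.

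Ly6c1, the Ly6C form typical of endothelium and lymphocytes, followed Sca-1 with wider steps. It had 379 and 270 CPM in unirradiated WT, 602 and 420 in irradiated WT, 1017 and 702 in unirradiated KO, and 1798 and 1405 in irradiated KO. The 4 groups did not overlap, although the 2 libraries of each differed by more than those of Ly6a did. KO cells had 2.65-fold more Ly6c1 than WT without irradiation (log2 1.41 ± 0.26, edgeR adjusted p = 0.00856) and 3.14-fold more after it (1.65 ± 0.26, adjusted p = 0.0034). After 30 Gy Ly6c1 rose 1.86-fold in KO (0.90 ± 0.25, adjusted p = 0.0257). In WT the value was 0.66 ± 0.25 with an adjusted p of 0.0767, which did not pass. Of the alternatives tried, 2 called it, 1 of them the fit with no filter on low counts. That fit gave the same log2 of 0.66 with a smaller SE of 0.115 (adjusted p = 1.92e-07). DESeq2 (adjusted p = 0.122) and upper-quartile factors (0.0561) did not call it, nor did any fit with 1 library left out. The interaction was 0.24 ± 0.36 (adjusted p = 0.891). Without unirradiated WT replicate 2 the KO difference before irradiation was not called (adjusted p = 0.0559), nor was the response in KO without unirradiated KO replicate 2 (0.142) or irradiated KO replicate 1 (0.126).

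Ly6c2, the Ly6C form typical of inflammatory monocytes, was read at a trace level. Its raw counts were 7 and 13 in unirradiated WT, 9 and 28 in irradiated WT, 10 and 23 in unirradiated KO, and 31 and 101 in irradiated KO, or 0.426 to 5.76 CPM. Irradiated KO held the 2 highest libraries, and irradiated WT overlapped both unirradiated groups. In KO cells irradiation raised Ly6c2 3.67-fold (log2 1.87 ± 0.63, edgeR adjusted p = 0.0473). That call was lost without unirradiated WT replicate 1 (adjusted p = 0.0552) or 2 (0.0532), unirradiated KO replicate 1 (0.17) or 2 (0.134), or irradiated KO replicate 2 (0.351, log2 0.91). The KO difference after irradiation was 1.77 ± 0.62 (adjusted p = 0.0761), the other differences were 0.72 ± 0.69 for KO against WT without irradiation (0.526) and 0.82 ± 0.68 for irradiation in WT (0.384), and none of them passed.

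Part of the Ly6c2 signal cannot be assigned with certainty. Of the 50-base words of the Ly6c2 transcript, 32.6% also occur in Ly6c1, and of its 100-base words 15.8%; the counting of reads that map to more than 1 gene is described in none of the sources used here. Per 1000 Ly6c1 reads there were 1.12 Ly6c2 reads (95% exact interval 0.452 to 2.32) in replicate 1 and 3.21 (1.71 to 5.50) in replicate 2 of unirradiated WT, and 1.08 (0.493 to 2.05) and 3.8 (2.52 to 5.50) in irradiated WT. In unirradiated KO the figures were 0.9 (0.431 to 1.66) and 1.68 (1.06 to 2.52), and in irradiated KO 1.13 (0.768 to 1.61) and 4.10 (3.33 to 4.98). Replicate 2 was the higher in all 4 groups, and the groups overlapped. With the reads of both genes summed, the sum changed as Ly6c1 did, by 1.41 (adjusted p = 0.00836) and 1.65 (0.0033) for KO against WT before and after irradiation and by 0.90 (0.0249) and 0.66 (0.0751) for irradiation in KO and in WT. Of the 50-base words of the Ly6a transcript 10% occur in some other gene, 4.42% in Ly6c1. For the Ly6c1 transcript the figures are 36.7% in some other gene and 31.7% in Ly6c2. The 100-base words of Ly6a occur in no other gene, nor do the 50-base words of Ly6e.

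Ly6e, like Ly6a a known interferon-inducible gene, moved with irradiation, and far more so in KO cells. It had 158 and 168 CPM in unirradiated WT, 231 and 250 in irradiated WT, 169 and 178 in unirradiated KO, and 759 and 817 in irradiated KO. The irradiated WT libraries lay above all unirradiated ones, irradiated KO lay far above the rest, and the unirradiated lines nearly met, with group means of 163 ± 7.10 and 174 ± 6.08 CPM (SD, n = 2). The irradiation response was 1.47-fold in WT (log2 0.56 ± 0.08, edgeR adjusted p = 0.00164) and 4.54-fold in KO (2.18 ± 0.09, adjusted p = 2.35e-06). The interaction was 1.62 ± 0.12 (adjusted p = 0.000968), a 3.08-fold larger response in KO, and its adjusted p lay between 0.00454 and 0.00934 with any 1 library left out. KO cells had 3.28-fold more Ly6e after irradiation (1.71 ± 0.08, adjusted p = 1.74e-05) and a difference of 0.09 ± 0.08 before it (adjusted p = 0.514).

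The Ly6 genes were thus called in different comparisons, and their counts are read against all 14923 genes tested. After 30 Gy in WT 1 of the 4 (Ly6e) rose, where 20.4% of all genes were called higher and 18.4% lower; the median log2 change was 0.61 against 0.03 over all genes. After 30 Gy in KO all 4 rose, where 21.1% of all genes were called higher and 18.6% lower, with medians of 1.39 and 0.02. Of these calls only that of Ly6e held with any 1 library left out, and the reads of Ly6c2 cannot be assigned with certainty. Between the unirradiated lines 2 of the 4 (Ly6a and Ly6c1) were higher in KO, against 10.4% of all genes higher and 9.49% lower, with medians of 0.70 and -0.01. Each of these calls was lost without some single library. Between the irradiated lines 3 of the 4 (Ly6a, Ly6c1 and Ly6e) were higher in KO, against 13.3% higher and 11.4% lower, with medians of 1.68 and -0.01. For the interaction 1 of the 4 (Ly6e) passed upward, against 1.37% higher and 0.57% lower, with medians of 0.81 and -0.01. Each group serves in more than 1 of these comparisons, so they are not independent.

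**Figure D2:**
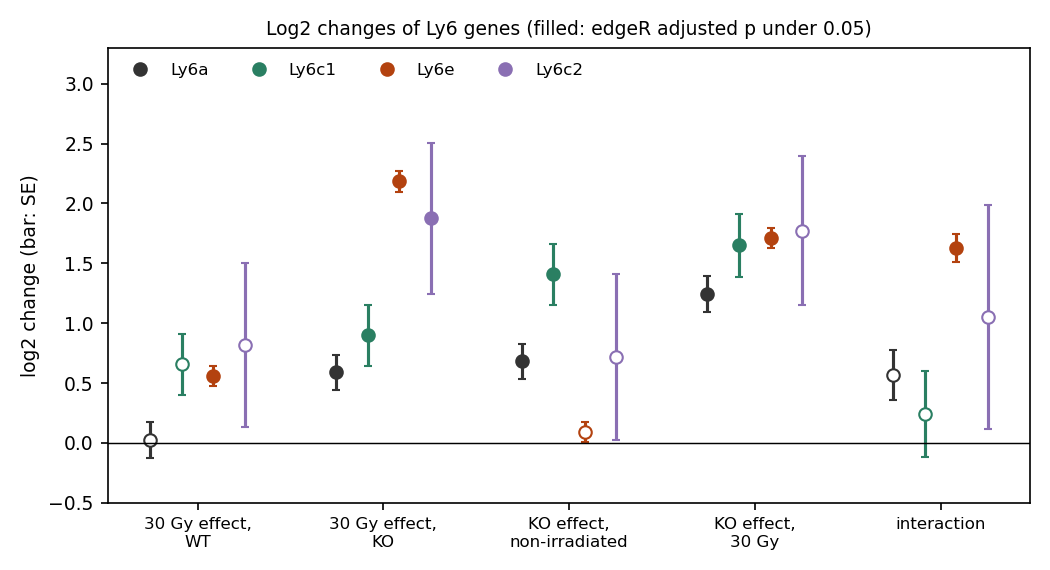
Log2 changes (edgeR fit) of the 4 measured Ly6 genes in each comparison, with bars of 1 SE, filled where the adjusted p is under 0.05. Ly6a and Ly6c1 are filled for KO against WT before irradiation, Ly6e is filled for the interaction at 1.62, and the bars of Ly6c2 are the widest.

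The makeup of the Ly6 signal differed between groups. Ly6c1 reads per Ly6a read were 0.708 and 0.614 in unirradiated WT, 1.1 and 0.948 in irradiated WT, 1.2 and 0.984 in unirradiated KO, and 1.45 and 1.27 in irradiated KO. Unirradiated WT lay below and irradiated KO above all other libraries, and the remaining groups overlapped. Ly6e reads per Ly6a read were 0.296 and 0.383 in unirradiated WT, 0.421 and 0.564 in irradiated WT, 0.2 and 0.249 in unirradiated KO, and 0.612 and 0.737 in irradiated KO, so this ratio was lowest in unirradiated and highest in irradiated KO, with no overlap of groups. The measured Ly6 genes took 0.0865% to 0.105% of all counts in unirradiated WT and 0.338% to 0.384% in irradiated KO.

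**Figure D3:**
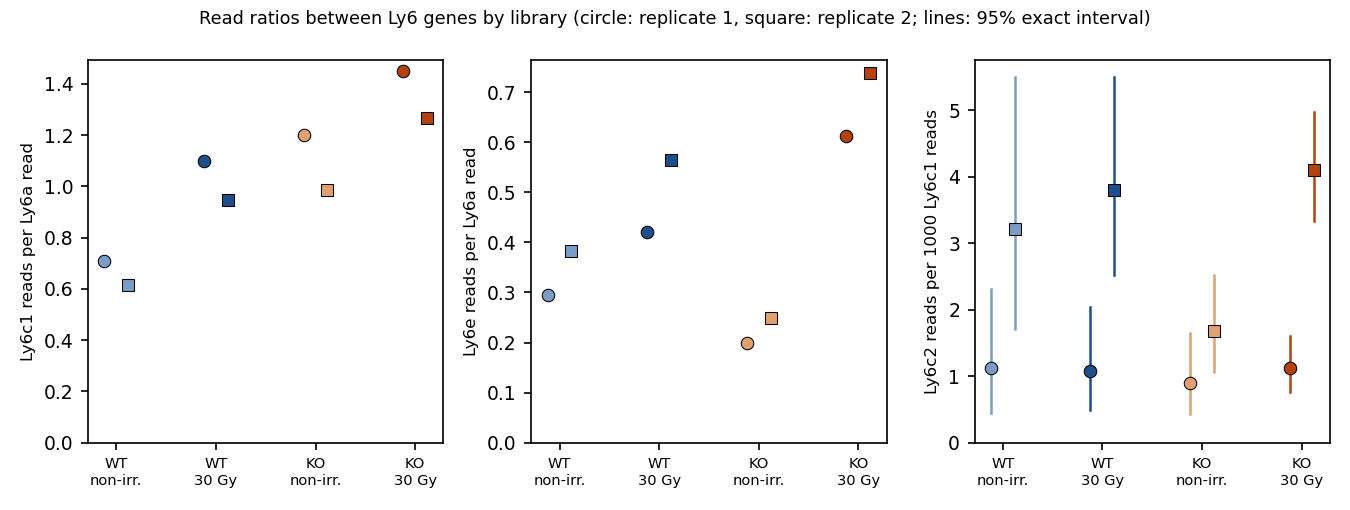
Ratios of raw reads between Ly6 genes per library (linear axes from 0), by group, with circles for replicate 1, squares for replicate 2 and, for Ly6c2 per 1000 Ly6c1 reads, 95% exact intervals. Ly6e per Ly6a falls to 0.2 in unirradiated KO and reaches 0.737 in irradiated KO, and Ly6c2 per Ly6c1 parts the replicates and not the groups.

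Per kilobase of the longest coding transcript, the mean level of Ly6a in CPM per kb was 510 ± 71.1 in unirradiated WT, 519 ± 77.6 in irradiated WT, 818 ± 99.5 in unirradiated KO and 1229 ± 96.2 in irradiated KO (SD, n = 2). On the same scale Ly6c1 stood at 384 ± 91.3, 605 ± 152, 1019 ± 264 and 1898 ± 329 in that order of groups, Ly6e at 71.6 ± 3.11, 105 ± 5.94, 76.0 ± 2.67 and 346 ± 18.2, and Ly6c2 at 0.787 to 4.74. The order of Ly6a and Ly6c1 depends on the length used. Another length was the union of exons of coding transcripts, or of all exons where a gene has no such transcript. With it Ly6a lay above Ly6c1 in every group, at 404 against 193 CPM per kb in unirradiated WT and 974 against 955 in irradiated KO. By this last scale, among 28915 genes ranked from the highest, Ly6a moved from place 110 in unirradiated WT to 23 in irradiated KO, Ly6c1 from 262 to 25, and Ly6e from 970 to 134, while Ly6c2 was at place 12221 and 8907.

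The paired libraries of a group differed in a repeated way. Library 2 had less Ly6a than library 1 in all 4 groups, at 0.808 to 0.895 of its CPM, and less Ly6c1, at 0.691 to 0.782. It had more Ly6c2, at 1.29 to 2.83 times, and more Ly6e, at 1.05 to 1.08 times. Within libraries of the same number, the KO to WT ratio of Ly6a was 1.58 and 1.62 before and 2.26 and 2.50 after irradiation, and that of Ly6c1 2.69 and 2.60 before and 2.99 and 3.35 after. The irradiation response of Ly6e in KO was 4.48 and 4.60. The labels do not say what the number marks.

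Beyond these genes, 42 others of the Ly6 and uPAR family were listed, 29 had a row and 9 passed the filter on low counts. The 20 others had at most 15 reads in any library. Slurp1, a secreted member that lies in the same cluster as Ly6a, was the most abundant. It had a mean of 260 ± 11.1 CPM in unirradiated WT, 89.4 ± 3.88 in irradiated WT, 620 ± 24.5 in unirradiated KO and 345 ± 7.88 in irradiated KO. It thus fell after irradiation, by 1.54 ± 0.08 in WT and 0.84 ± 0.08 in KO (edgeR adjusted p = 1.83e-05 and 0.000147), and was higher in KO both before (1.26 ± 0.08, adjusted p = 9.7e-05) and after irradiation (1.95 ± 0.08, adjusted p = 9.56e-06). Its fall was smaller in KO by 0.69 ± 0.11 (interaction, adjusted p = 0.021), a call that was lost on leaving out any 1 of the 8 libraries (adjusted p between 0.0597 and 0.133).

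Psca, the prostate stem cell antigen, and Lypd2, both in the cluster, were also higher in KO, at lower levels. Psca had means of 1.83 and 3.69 CPM in unirradiated and irradiated WT and 8.01 and 15.6 in the KO groups, a KO difference of 2.13 ± 0.23 before and 2.08 ± 0.21 after irradiation (edgeR adjusted p = 0.000838 and 0.000429). It rose after irradiation by 1.01 in WT, not called without unirradiated WT replicate 1 (adjusted p = 0.0654), and by 0.96 in KO, not called without irradiated KO replicate 2 (0.0586). Lypd2 had 1.18 and 3.03 CPM in WT and 10.3 and 14.3 in KO, a KO difference of 3.11 ± 0.24 and 2.25 ± 0.22; it rose by 1.35 in WT, and in KO the change was 0.48 (adjusted p = 0.0988). Ly6f ran the other way between the irradiated lines only. Before irradiation its KO difference was not called (-0.97 ± 0.49, edgeR adjusted p = 0.209). It had 0.538 and 4.42 CPM in WT and 0.286 and 1.18 in KO, so that it rose by 3.02 ± 0.40 after irradiation in WT and in irradiated KO stood at -1.90 ± 0.37 relative to irradiated WT (adjusted p = 0.0083). That KO difference was not called without irradiated WT replicate 1 (0.0624) or irradiated KO replicate 1 (0.0687), and the rise in KO (2.09) not without unirradiated KO replicate 2 (0.0704) or irradiated KO replicate 2 (0.0555). Ly6f passed the filter only through the irradiated groups.

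Of the remaining family members, Lynx1 and Plaur were called for irradiation, Lypd5 was called at few reads, and Ly6i and Cd59b had no call. Lynx1, a modulator of nicotinic acetylcholine receptors in the cluster, went from 83.7 to 44.1 CPM in WT and from 71.4 to 39.8 in KO, and Plaur, the urokinase receptor on chromosome 7, from 68.2 to 24.3 and from 58.2 to 27.3. Both fell in both lines, Lynx1 by 0.92 and 0.85 and Plaur by 1.49 and 1.09 on the log2 scale, with edgeR adjusted p of 0.000274, 0.00038, 3.46e-05 and 8.78e-05. Lypd5 on chromosome 7 had 0 to 4 reads in WT, 2 and 22 in unirradiated KO and 48 and 43 in irradiated KO, and its KO difference after irradiation (4.09 ± 0.97, adjusted p = 0.0193) was lost without irradiated WT replicate 1 (0.103) or 2 (0.0703) or irradiated KO replicate 1 (0.0773) or 2 (0.0567). It passed the filter through irradiated KO, as did Cd59b, which had 0 to 33 reads and no call. Ly6i, next to Ly6a, stood at 0.969 to 1.56 CPM with changes between -0.37 and 0.04 and no call. Over the 6 that reached the filter's level in every group, which leaves out Ly6f, Lypd5 and Cd59b, 2 rose and 3 fell after irradiation in WT (20.4% and 18.4% of all genes), 1 rose and 3 fell in KO (21.1% and 18.6%), and 3 were higher in KO before and 3 after irradiation (10.4% and 13.3%).

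**Figure D4:**
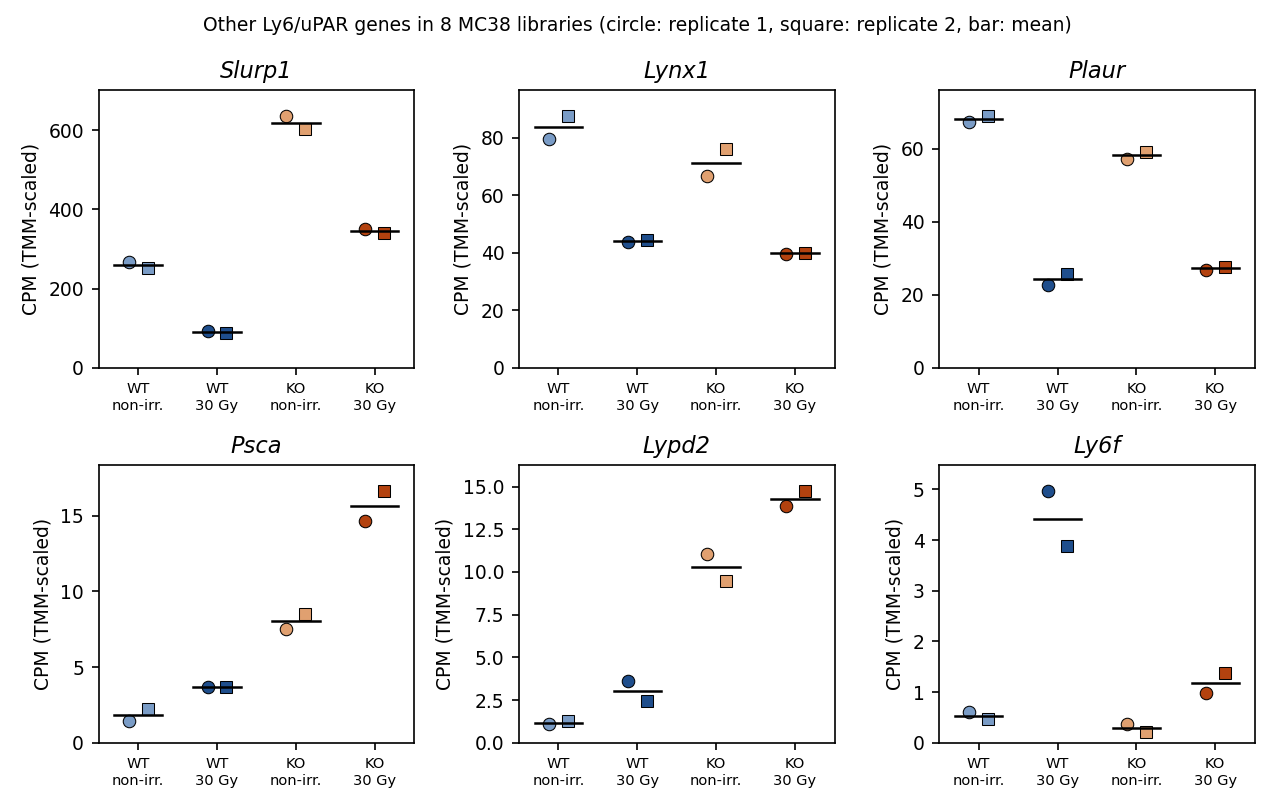
TMM-scaled CPM (linear axes from 0) of 6 other Ly6 and uPAR family genes in each library, by group, with circles for replicate 1, squares for replicate 2 and bars for means. Slurp1, Psca and Lypd2 are higher in both KO groups than in the matching WT groups, Lynx1 and Plaur fall after irradiation in both lines, and Ly6f is highest in irradiated WT.

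Along the chromosome, the higher level in KO was not shared by all neighbours of Ly6a. Of the 10 tested protein-coding genes on its lower-coordinate side and the 10 on the other, Psca, Slurp1, Lypd2, Ly6e, Ly6c1 and Gsdmd, the pore-forming gasdermin D, were called higher in irradiated KO. Arc and Ly6f were called lower, at -0.66 and -1.90, Arc not without irradiated WT replicate 2 (adjusted p = 0.104), irradiated KO replicate 1 (0.0891) or 2 (0.0872). The remaining 12 were not called, among them Ly6i at 0.04, Lynx1 at -0.15 and Them6 at 0.10 within the cluster. Over the 570 tested genes of chromosome 15 the median KO difference was 0.002 before and 0.01 after irradiation, against -0.01 and -0.01 over the other 14353 genes. Of the 570, 13.2% were called higher and 6.67% lower in KO before irradiation (10.4% and 9.49% of all genes), and 14.7% and 11.4% after it (13.3% and 11.4% of all genes).

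**Figure D5:**
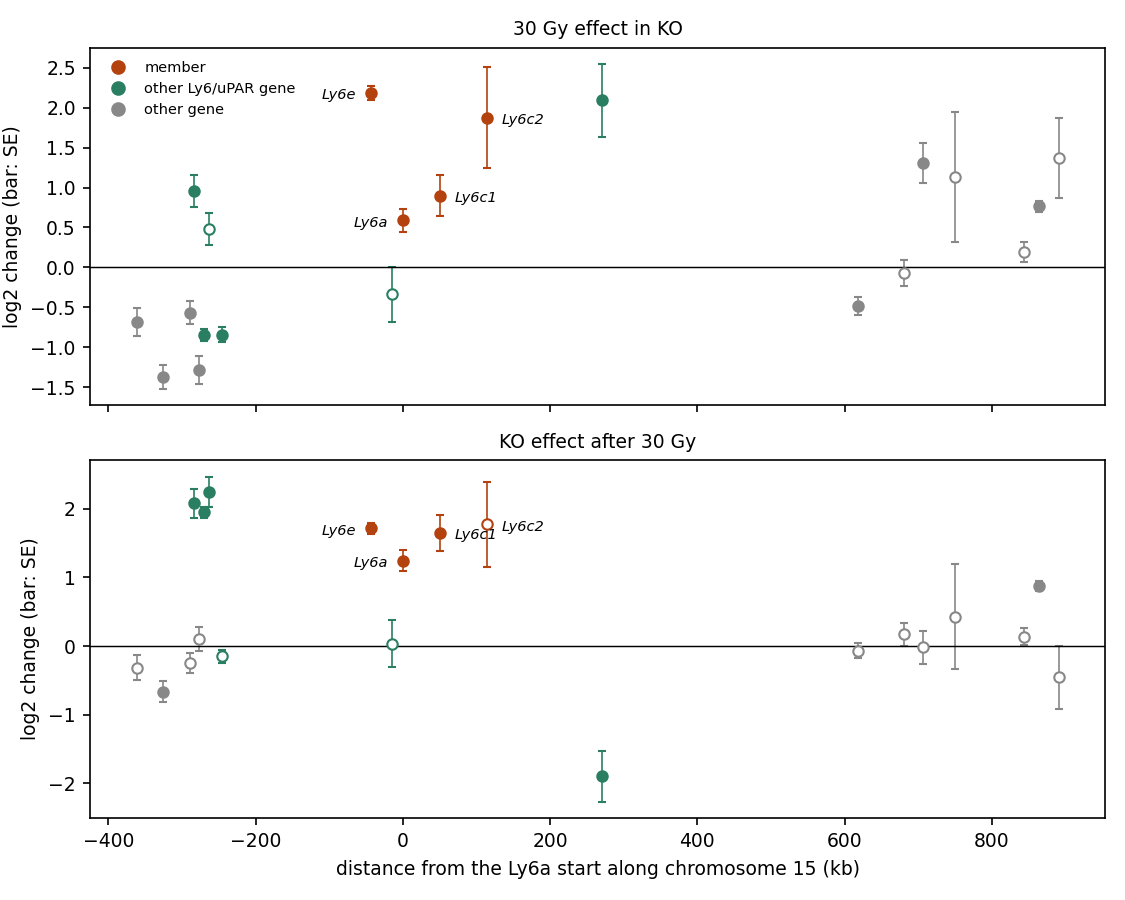
Log2 changes (bars of 1 SE; filled where the edgeR adjusted p is under 0.05) of Ly6a and its 10 tested neighbours on either side, by distance in kb from the start of Ly6a, for 30 Gy in KO above and for KO against WT after 30 Gy below. Genes that rise, genes that fall and genes with no call alternate along the cluster.

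Ly6a and Ly6e are known interferon-inducible genes, so interferon receptors and signalling genes were read in the same fit. Of 19 listed, 15 were tested: 8 rose and 1 fell in WT after 30 Gy (median 0.67, against 0.03 and calls of 20.4% higher and 18.4% lower over all genes), and 10 rose and 1 fell in KO (median 0.81, against 0.02, 21.1% and 18.6%). Between the lines 4 were higher and 6 lower in KO before irradiation (10.4% and 9.49% of all genes) and 8 higher and 4 lower after it (13.3% and 11.4%), and 3 had a larger response in KO (1.37%). Usp18 and Ifnb1 are among these counts and passed the filter only through some groups. The other 13 had 7 higher and 1 lower after irradiation in WT and 8 and 1 in KO. Between the lines these 13 had 3 higher and 6 lower in KO before irradiation and 6 and 4 after it. The 3 with a larger response in KO were among them. Ifnb1, the interferon beta ligand, had 1, 0, 4 and 4 reads in the WT libraries and 1, 0, 129 and 118 in those of KO, unirradiated first. The interaction was called for the feedback inhibitor Socs1 (2.61 ± 0.24, edgeR adjusted p = 0.00223) and for the transcription factors Stat2 (1.53 ± 0.11, 0.00117) and Irf1 (1.15 ± 0.14, 0.00661). Stat2 had mean levels of 24.1 and 107 CPM in WT and 38.2 and 490.5 in KO, unirradiated first. Before irradiation the genes higher in KO included Irf7 at 2.27, and Usp18 at 2.40, whose call was lost without either library of either unirradiated group or either of irradiated KO (adjusted p between 0.0518 and 0.198), whereas Socs1 and the interferon gamma receptor chain Ifngr2 stood at -1.51 and -1.36. Ly6a and Ly6c1 were higher in KO at that point and Ly6e was not called.

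The genes most alike in pattern were taken by Pearson's r of log2 CPM over the 8 libraries among 11044 genes, as a description, since all of them share libraries. For Ly6e these were Tor3a, Gm49342, C4b, Gbp10 and Tor1aip1, with r from 0.996 to 0.998, and Tor3a had an interaction of 2.35 ± 0.14 (edgeR adjusted p = 0.000583), Tor1aip1 of 1.35 ± 0.11 (0.00169) and Gm49342 of 1.16 ± 0.10 (0.00199). For Ly6a they were Isoc1, Cnot6l, Igfbp6, Hoxa10 and Clk3 (0.98 to 0.988), for Ly6c1 Tmem181b-ps, Snx10, Tmem126b, Fem1c and Nucb2 (0.99 to 0.994), and for Ly6c2 Ankrd17, Ap2b1, Zfp553, Exoc3l2 and Repin1 (0.959 to 0.983). The lists share no gene. Of the genes most like Ly6e, C4b (interaction 3.18 ± 1.31, edgeR adjusted p = 0.59) and Gbp10 (3.83) were not called. These 2 had 0 to 3 reads per unirradiated library. C4b reached the filter's level only in the irradiated groups. Gbp10, with 5 and 6 reads in irradiated WT, reached it only in irradiated KO. Among the Ly6 genes themselves r was 0.97 between Ly6a and Ly6c1, 0.86 between Ly6c2 and Ly6e, 0.75 and 0.77 between Ly6e and the former pair, and 0.64 for Ly6c2 with each of them.

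Sca-1 marks regenerating, fetal-like intestinal epithelium in the mouse, and other genes known for that state were called in both directions. Of 25 listed, 13 were tested, and 5 were higher and 4 lower in KO, both before and after irradiation (medians 0.07 and -0.13; 10.4% and 9.49% of all genes before, 13.3% and 11.4% after). Sprr1a, a cornified envelope protein, had 1 to 3 reads per WT library and 94 to 352 per KO library, and Msln, mesothelin, was higher by 1.06 ± 0.07 before and 1.38 ± 0.07 after irradiation. The secreted glycoprotein Spp1 stood at -1.89 ± 0.08 and -0.94 ± 0.08, and Ccn2, a matricellular target of YAP, had 20 to 51 reads per WT and 0 to 6 per KO library, and was not called before irradiation without unirradiated WT replicate 1 (adjusted p = 0.0786) or 2 (0.0656). Sprr1a and Ccn2 each passed the filter through 1 line only, and Itga2 only through irradiated WT. The 10 tested genes that reached the filter's level in every group had 4 higher and 3 lower in KO, both before and after irradiation. Of 21 crypt stem cell genes 13 were tested. In KO 1 was higher and 4 lower before irradiation (10.4% and 9.49% of all genes), with the ephrin receptor gene Ephb3 at -1.34 ± 0.09. After irradiation 6 were lower (11.4% of all genes). Smoc2 passed the filter only through WT. The 12 others had 1 higher and 4 lower in KO before irradiation and 5 lower after it.

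Because Ly6a, Ly6c1 and Ly6c2 are also genes of blood and vessel cells, marker lists of other cell types were summed. The 14 monocyte and macrophage markers summed to 9.40 to 9.86 CPM in unirradiated WT, 45.8 to 46.1 in irradiated WT, 17.9 to 19.8 in unirradiated KO and 75.3 to 85.5 in irradiated KO. The group means of Ly6c2 and Ly6e had the same order of groups as these sums, while in Ly6a and Ly6c1 both KO groups lay above both WT groups; the part of these markers in the Ly6 results was not tested. Cd68 and Cd14 gave most of these sums, while Adgre1, Itgam, C1qa, C1qb, Tyrobp and Ccr2 had at most 2 reads in any library. Of the 14, 6 were tested, but Ptprc, Lyz2, Ctss and Plac8 passed the filter on low counts only through irradiated groups, so their calls on irradiation support nothing. Of the other 2, Cd68 rose in WT and both rose in KO after irradiation, and both were higher in KO before and after it. Over all genes 20.4% were called higher after irradiation in WT and 21.1% in KO. Against WT, 10.4% were called higher in KO before irradiation and 13.3% after it.

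The 12 endothelium markers summed to 13.2 to 15.7, 30.3 to 36.1, 14.3 to 15.3 and 21.2 to 26.4 CPM in the same order of groups. In the highest library Vwf had 211 reads, Flt1 144, Tek 137, Pecam1 102, Eng 91 and Egfl7 63. Cdh5 had at most 17, Esam 8, Kdr 5, Tie1 4, Emcn 2 and Cldn5 1. Of the 12, 7 were tested. Of the 4 that reached the filter's level in every group 1 rose in WT and 1 in KO, and 1 was lower in KO before and 1 after irradiation. T and NK cell markers, 10 of 14 with a row, summed to 0.426 to 1.44 CPM over all libraries, and their 1 tested gene had no call. The 12 fibroblast markers summed to 1152 to 1257, 1632 to 1814, 1560 to 1687 and 2604 to 2916 CPM, led by Col1a2 and Col3a1, with Lum at most 1 read; 9 were tested, and of the 6 that reached that level in every group 5 rose in WT, 5 rose and 1 fell in KO, and 4 were higher in KO before and 5 after irradiation. The epithelium markers, 8 of 9 with a row, summed to 41.9 to 42.4, 77.5 to 80.8, 49.2 to 52.3 and 82.2 to 82.5 CPM; 4 were tested, and of the 2 that reached it in every group 1 rose in WT and 2 in KO, and 1 was higher in KO before irradiation. Over all genes 20.4% rose and 18.4% fell after irradiation in WT, and 21.1% rose and 18.6% fell in KO. Against WT, 10.4% were higher and 9.49% lower in KO before irradiation, and 13.3% and 11.4% after it. The fibroblast sum was lowest in unirradiated WT and highest in irradiated KO. The monocyte and epithelium sums and the means of all 4 measured Ly6 genes were so too. The part of these sums in the Ly6 results was not tested.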

How the data were processed

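mRNA was sequenced from 8 MC38 libraries, 2 in each of 4 groups set by the sample titles. The authors deposited raw counts of reads, 1 whole number per Ensembl gene and library, without normalization. HISAT2, HISAT, HTSeq and DESeq2 and the build mm10 are named in the submitters' processing notes. Versions, annotation release, strand setting and the handling of reads that map to several genes were not stated there. Symbols and positions came from a GENCODE annotation of GRCm38, which matched 28880 of 29079 identifiers.

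Counts were tested with edgeR 4.0.16 in R 4.3.3 (quasi-likelihood F test, 1 coefficient per group, all 8 libraries, 4 residual degrees of freedom). A filter on low counts before the test left 14923 genes. It was filterByExpr with a minimum count of 10, here 0.623 CPM in at least 2 libraries, and 15 reads in total. TMM scaling was used, with Benjamini-Hochberg adjustment over all 14923 genes and calls at adjusted p under 0.05. SE is the absolute log2 change divided by the root of F. The script was tested on simulated counts with known changes. Likeness used log2(CPM + 0.5) for genes with at least 5 CPM in the highest group. Alternatives were DESeq2 1.42.0, upper-quartile factors, no filter, a replicate block, each library left out in turn, and Ly6c1 and Ly6c2 summed. Of each gene list the highest 2 and lowest 2 called genes may be named. The members and lists were chosen with earlier results of these data known. A gene listed as a member, Ly6k, is not analysed here.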

Additional observations from a re-analysis of the deposited data

Results flagged for a closer look

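For the following genes the test of the difference between the irradiation responses of the lines passed (edgeR interaction, adjusted p under 0.05; groups of 2 allow no check for single libraries that stand apart). Ly6e responded to 30 Gy more in KO than in WT by 1.62 on the log2 scale, in libraries of both numbers. Slurp1, a family member whose level fell, differed by 0.69, and gasdermin D (Gsdmd), a neighbour of Ly6a, by 0.75; neither call held with any 1 of the 8 libraries left out (adjusted p between 0.0597 and 0.133 for Slurp1 and between 0.0505 and 0.0642 for Gsdmd). Among interferon signalling genes the difference was 2.61 for Socs1, 1.53 for Stat2 and 1.15 for Irf1. Among the genes whose pattern was most like that of Ly6e it was 2.35 for Tor3a, 1.35 for Tor1aip1 and 1.16 for Gm49342; these were picked for that likeness, so their interaction is no separate result.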

How the results depend on the processing

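Of 250 values of Ly6 gene results under alternatives, 222 kept direction and call; for 64 changes of other genes given in the text 702 of 768 did, and Ly6i, with no call, turned sign in 4, each without 1 library (between -0.0703 and 0.0964 over all such fits for KO before irradiation, with -0.0554 the other below 0, and -0.18 and -0.0055 after it). The Ly6e calls held in all of them. With no filter on low counts, calls were gained by Ly6c1 for irradiation in WT (0.66, adjusted p = 1.92e-07), by Ly6c2 for KO against WT after irradiation (1.76, 0.00105) and by Ly6a for the interaction (0.55, 0.0338). With Ly6c1 and Ly6c2 summed, the value in place of Ly6c2 was 1.41 (0.00836) before and 1.65 (0.0033) after irradiation. Counts of called genes moved to 359 higher and 219 lower for the interaction with no filter.

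Same-numbered libraries deviated together (r 0.619 to 0.656 in the 6 pairs of groups), but there are only 2 numbers, which the labels do not explain. With the replicate number as a block, calls were gained by Ly6c1 for irradiation in WT (0.65, adjusted p = 4.8e-18), Ly6c2 for KO after irradiation (1.76, 6.95e-05), and the interactions of Ly6a (0.57, 4.79e-11) and Ly6c1 (0.26, 0.000534). The block moved genes called lower to 4465 for irradiation in WT and 4417 in KO, and higher and lower to 3197 and 3504 for KO before irradiation, 3761 and 3755 after it, and 1216 and 1276 for the interaction; it changed no other call of these 4 genes. Of the other genes it gained calls for Lypd2 on irradiation in KO (0.49, adjusted p = 0.00426) and for Lynx1 (-0.22, 0.00281) and Plaur (-0.23, 0.00599) in KO before irradiation.

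Leaving out 1 library at a time gave these log2 ranges. Ly6a ranged from -0.15 to 0.16 for irradiation in WT, its sign turning without non-irradiated WT replicate 2 (-0.12), irradiated WT replicate 1 (-0.15) or irradiated KO replicate 2 (-0.0013), from 0.46 to 0.71 for irradiation in KO, and from 0.54 to 0.83 for KO before irradiation. Ly6c1 ranged from 0.64 to 1.18 for irradiation in KO, from 1.12 to 1.68 for KO before irradiation, and from -0.0247 to 0.53 for the interaction, below 0 without non-irradiated WT replicate 1 (-0.0247), irradiated WT replicate 2 (-0.02) or non-irradiated KO replicate 2 (-0.0039). Ly6c2 ranged from 0.91 to 2.44 for irradiation in KO and from 0.85 to 2.55 for KO after irradiation, called at 2.34 without irradiated KO replicate 1 (adjusted p = 0.0446). Counts of called genes, higher then lower, ranged over 2034 to 3015 and 1812 to 2754 for irradiation in WT, 2072 to 3104 and 1832 to 2883 in KO, 788 to 1406 and 676 to 1139 for KO before irradiation, 1100 to 1887 and 792 to 1592 after it, and 99 to 124 and 18 to 31 for the interaction. A group left with 1 library is assumed to vary like the others. Ly6c2, at 7 to 101 reads, is limited by depth.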

Other observations

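The enzymes that make the GPI anchor and attach it to proteins of the Ly6 family were called in both directions after irradiation. Of 26 tested, 2 rose and 8 fell in WT after 30 Gy (median log2 -0.27; 20.4% and 18.4% of all genes), with Pigp at 0.53, Pigl at 0.46, Pigw at -0.97 and Dpm3 at -0.95 (edgeR quasi-likelihood test). In KO 4 rose and 4 fell (median -0.06; 21.1% and 18.6% of all genes), with Piga, a catalytic subunit of the first step, at 0.79 and Dpm3 at -0.78. Before irradiation 2 were lower in KO (9.49%), Gpaa1 of the transamidase at -0.72 and Pigk at -0.31. After irradiation 4 were higher and 1 lower (13.3% and 11.4%), with Pgap2, which remodels the anchor, at 0.81, Pigv at 0.70 and Gpaa1 at -0.41. Calls were lost without unirradiated WT replicate 2 or irradiated WT replicate 1 for Pigp, without either unirradiated WT library or irradiated WT replicate 2 for Pigl, without unirradiated WT replicate 1 or irradiated WT replicate 2 for Pigw, without any 1 of the 8 libraries for Pigk, and without irradiated WT replicate 2 or either irradiated KO library for Pigv and for Gpaa1 after irradiation (adjusted p between 0.0561 and 0.173 in all of these); DESeq2 did not call Pigl (adjusted p = 0.0636).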
